A study of Homo sapiens with 12 samples.

Results

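The mRNAs of 10 genes for SR and SR-like splicing factors, SRSF1, SRSF2, SRSF3, SRSF4, SRSF5, SRSF6, SRSF7, SRSF10, SRSF11 and TRA2B, were followed through polysome gradients of WT and CBFB_KO MCF10A cells. The genes were taken by symbol from a named list. All 10 were found among the 56632 genes of the deposited tables, and all 10 were among the 16275 genes that passed the filter on low counts. MCF10A is a non-tumorigenic human mammary epithelial line, and CBFB encodes core-binding factor beta, the partner of the RUNX transcription factors, which the study examined for a role in translation. The 6 groups were wild type (WT) and CBFB_KO cells, each divided into a free fraction, with mRNA carrying no ribosome, a monoribosomal fraction (mono) and a pooled polyribosomal fraction (poly). Each group had 2 libraries. Cells of both genotypes were given cycloheximide before lysis, which stalls ribosomes on mRNA. The knockout was made with CRISPR-Cas9 and cells were grown from single-cell colonies, so the CBFB_KO libraries may stand for a single clone, and the sources used here do not say that the 2 replicates were separate cultures. P-values therefore measure the spread between these libraries, which may be technical.

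SR proteins bind exonic sequences in pre-mRNA through RNA recognition motifs and recruit the splicing machinery through domains rich in arginine and serine, which SRPK and CLK kinases phosphorylate. Several of them shuttle to the cytoplasm and take part in mRNA export and translation. Their genes are known for self-limiting control: an SR protein can promote the inclusion of a poison exon, or the retention of an intron, in its own transcript, and the resulting RNA is degraded by nonsense-mediated decay or held in the nucleus. A fraction of a gradient can therefore hold several kinds of transcript from the same SR gene.

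The deposited gene tables list 117 transcripts for the 10 genes, 109 of which are in GENCODE 29 (GRCh38). Of these, 41 are annotated as protein coding, 20 as targets of nonsense-mediated decay and 28 as retaining an intron. The tables used here give 1 value per gene, so the isoforms were not measured apart. GENCODE 29 was searched for poison exons, taken as internal exons that hold the annotated stop codon of a decay transcript. They also had to overlap no exon of any coding transcript of the gene. The search found 8 such exons in 4 of the 10 genes, SRSF3, SRSF4, SRSF6 and SRSF7. For 6 of them the decay transcript is listed in the deposited tables. Reads from such exons count toward the gene's value although the transcript does not encode the full protein, and 5 of them are shown to make this visible. Each is printed in the sense direction from the first base of the exon to its in-frame stop codon, which stands in capitals.
SRSF3, plus strand, chr6:36599821-36599854: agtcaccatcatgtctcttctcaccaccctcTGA
SRSF4, minus strand, chr1:29160018-29160058: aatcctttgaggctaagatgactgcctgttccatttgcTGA
SRSF6, plus strand, chr20:43459153-43459304: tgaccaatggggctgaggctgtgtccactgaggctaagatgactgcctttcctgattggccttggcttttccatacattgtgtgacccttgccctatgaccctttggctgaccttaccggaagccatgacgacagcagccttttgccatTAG
SRSF7, minus strand, chr2:38749152-38749173: ggcagaaaatttgagacggTGA
SRSF7, minus strand, chr2:38749319-38749346: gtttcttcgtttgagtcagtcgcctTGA
The whole exons shown are 456 bases long in SRSF3, 195 in SRSF4, 268 in SRSF6, and 276 and 449 in SRSF7, where the 2 share their 3′ end. The stop falls within the first 41 bases in SRSF3, in SRSF4 and in both SRSF7 exons. In SRSF6 it is 152 bases from the start of the exon. No exon of SRSF1, SRSF2, SRSF5, SRSF10, SRSF11 or TRA2B met this rule, which does not search retained introns or spliced untranslated regions. The rule also drops any exon that overlaps an exon of an annotated coding transcript, so these genes may still have poison exons.

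The libraries held between 41050325 and 63886726 expected counts, the number of reads that RSEM assigned to genes. The share from the mitochondrial genome was 71.6% and 87.2% in CBFB_KO free, 11.1% and 20.8% in WT free and at most 8.08% elsewhere. Counts outside that genome numbered 13568143 and 5247878 in CBFB_KO free and at least 43279862 in every other library. The 2 CBFB_KO poly libraries differed by a mean chi-square per gene of 2.22, against 123 to 954 for the other pairs, so they lie far closer together than any other replicates. Whether they are separate samples or 1 library run more than once is not given in the sources used here. If the latter, the CBFB_KO poly group holds 1 sample and its SDs show technical spread only. The tests take their spread from all 12 libraries together. In that case the p-values of every comparison, and the percentages of all genes called, could rest on too small a spread. CBFB mRNA was measured at 5.37 and 12.6 CPM (counts scaled to a common library size) in WT free, 11.3 and 14.1 in CBFB_KO free, 8.03 and 6.20 in WT mono, 4.79 and 3.89 in CBFB_KO mono, 5.72 and 6.84 in WT poly, and 3.59 and 4.01 in CBFB_KO poly. It passed the test between genotypes in no fraction (smallest edgeR adjusted p 0.373), and an edited gene can still be transcribed, so this does not check the labels. All 8 markers of basal mammary epithelium were detected, at a summed 1123 to 6320.1 CPM. Of 8 markers of immune, endothelial, stromal and luminal cells, 7 were matched in the tables, summing to at most 7.01 CPM in any library.

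Per base of transcript and with all listed isoforms together, SRSF7, SRSF2 and SRSF3 were the most abundant of the 10 genes on polyribosomes. These values include transcripts annotated for decay or with a retained intron, so they are not levels of coding mRNA alone. In TPM, RSEM's unit that divides by transcript length, WT poly held SRSF7 at 164 ± 18.2, SRSF2 at 146 ± 3.29 and SRSF3 at 126 ± 1.88 (mean ± SD, n = 2, here and in the rest of this paragraph). Their libraries did not overlap. SRSF7 and SRSF3 encode small shuttling proteins that also act in mRNA export, whereas SRSF2 stays mostly in the nucleus. TRA2B, an SR-like activator of exons with purine-rich enhancers, followed at 62.6 ± 10.1 TPM. SRSF1, the founding member of the family, had 32.0 ± 8.24 TPM, and its libraries overlapped those of SRSF5 at 27.7 ± 8.57 TPM. SRSF4 (20.6 ± 5.28 TPM) and SRSF6 (20.3 ± 2.02 TPM), which encode larger relatives of SRSF5, overlapped as well. SRSF10, which can repress splicing, had 11.7 ± 4.07 TPM, and SRSF11, an atypical SR protein of nuclear speckles, was lowest at 4.16 ± 1.85 TPM. In CBFB_KO poly the order was the same except for 2 exchanges between neighbours, SRSF5 with SRSF1 and SRSF6 with SRSF4, both of which overlapped in WT.

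The order on polyribosomes was not the order in the free fraction. In WT free, SRSF2 led at 149 ± 17.9 TPM and SRSF3 followed at 78.3 ± 13.8, while SRSF7 had 34.8 ± 0.686 and SRSF1 only 6.54 ± 0.318 TPM. SRSF5, TRA2B and SRSF6 lay between 11.3 and 14.4 TPM, and each overlapped its neighbour. In WT mono SRSF3 led at 46.9 ± 2.38 TPM, before SRSF7 at 41.0 ± 0.898 and SRSF2 at 29.8 ± 6.87, and in CBFB_KO mono the same 3 led in the same order. In CBFB_KO free the genes could not be ordered by TPM across the 2 libraries, since each gene's libraries overlapped those of the next. There SRSF2 had 28.0 and 2.49 TPM and SRSF1 had 17.1 and 5.17 TPM. TPM is set against the whole library, mitochondrial transcripts included, which bears most on these 2 libraries.

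A share within the 10 genes does not depend on that total. SRSF1 made up 1.98% to 2.16% of the summed TPM of the 10 genes in the WT free libraries and 20.1% to 24.7% in the CBFB_KO free libraries. In the mono and poly libraries of both genotypes its share lay between 2.75% and 5.74%. SRSF11 took 0.406% to 0.421% in WT free and 2.88% to 7.32% in CBFB_KO free, against at most 1.92% in every other library. The SRSF2 share was 43.6% to 50.7% in WT free and 11.9% to 32.8% in CBFB_KO free. The SRSF3 share was 21.5% to 28.1% in WT free and 12.1% to 14.6% in CBFB_KO free. Within CBFB_KO free, the SRSF1 share lay above those of SRSF3 and SRSF7 (12.7% to 13.9%) and overlapped that of SRSF2. The shares of all 10 genes, not only these 4, were without overlap between genotypes in the free fraction. They are parts of the same total, so they do not move independently. From WT free to CBFB_KO free the shares of SRSF4, SRSF5, SRSF7, SRSF10 and TRA2B rose as well. Those of SRSF2, SRSF3 and SRSF6 fell. Separation was common there: in CPM, 37.4% of all genes were higher and 31.5% lower in CBFB_KO free without overlap.

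**Figure D1:**
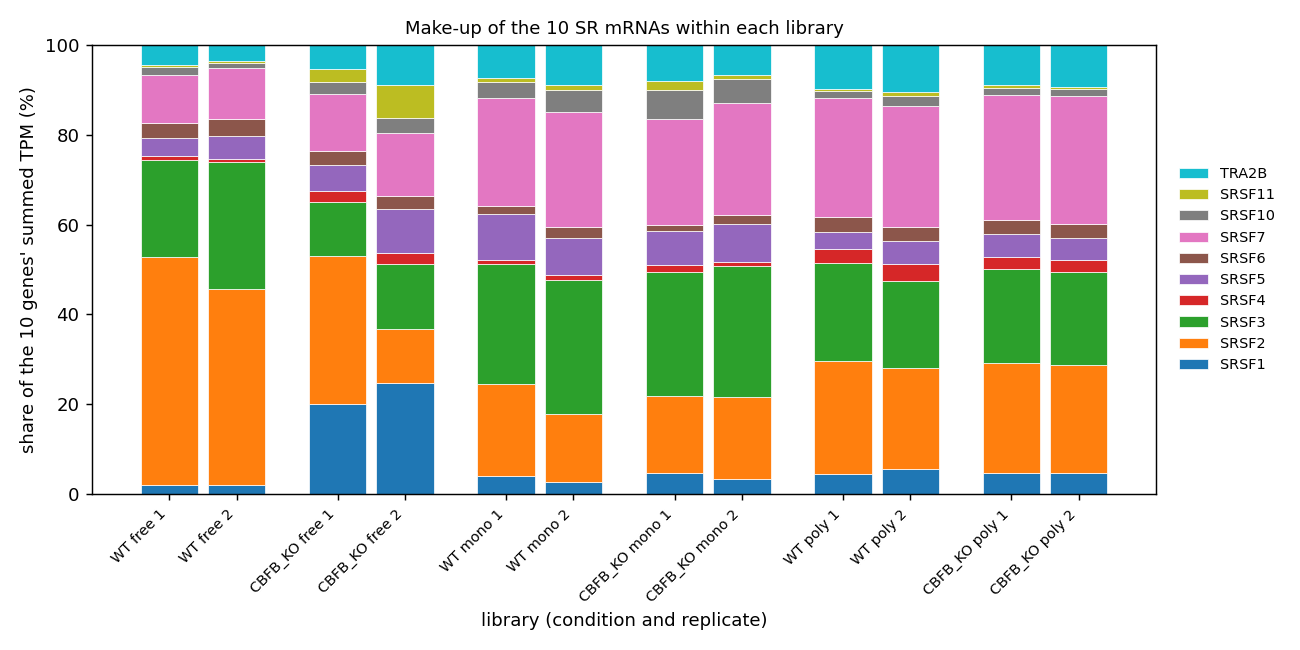
Stacked bars give each gene's share, in percent, of the summed TPM of the 10 SR mRNAs in each of the 12 libraries. The SRSF1 share is 20.1% and 24.7% in the CBFB_KO free libraries and at most 5.74% in all others.

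The first question was whether the level of these mRNAs differed between CBFB_KO and WT cells within a fraction. In the free fraction SRSF1 was 10.9-fold, SRSF11 9.34-fold and SRSF4 2.29-fold higher in CBFB_KO than in WT, and SRSF3 was 2.15-fold lower. The other 6 mRNAs did not pass the test. Counts were scaled by the trimmed mean of M values (TMM), which sets the bulk of genes equal between libraries, given as CPM and tested with edgeR over all 16275 genes. In bulk RNA of this kind, fewer cells with a transcript and less of it per cell cannot be told apart, and a fraction's values say nothing of how much RNA the fraction held.

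SRSF1 had 9.52 and 11.4 CPM in WT free and 123 and 106 CPM in CBFB_KO free. Both knockout libraries were far above both WT libraries, and also above the 37.0 to 44.4 CPM of the poly libraries. The log2 change was 3.45 ± 0.38 (SE), or 10.9-fold, with an edgeR adjusted p of 0.000131. SRSF11 had 2.98 and 2.03 CPM in WT free and 18.3 and 28.6 CPM in CBFB_KO free, again without overlap. All other libraries of SRSF11 were low, between 2.53 and 4.80 CPM. Its log2 change was 3.22 ± 0.46, or 9.34-fold, with an edgeR adjusted p of 0.000601. SRSF1 also shares exonic sequence on its own strand with an unnamed gene, which had 1.82 to 71.7 counts in a library. Both calls held under all 22 alternatives that were fitted, with log2 changes of 1.79 to 3.56 for SRSF1 and 1.44 to 3.81 for SRSF11.

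SRSF4 had 7.19 and 5.72 CPM in WT free and 17.7 and 11.7 CPM in CBFB_KO free. The groups did not overlap, but the knockout libraries were spread. The log2 change was 1.19 ± 0.36 (edgeR adjusted p 0.0237). SRSF3 had 122 and 134 CPM in WT free and 63.0 and 56.0 CPM in CBFB_KO free, and its pairs were tight and separate. It fell by 1.10 ± 0.36 on the log2 scale (edgeR adjusted p 0.0297). These 2 calls were less stable. Scaled by library size alone, which moves the median of all genes to -1.57, SRSF4 turned to -0.39 (edgeR adjusted p 0.578). This is 1.17 above that median, but setting values against the median nearly repeats what TMM does. The SRSF4 call was kept in 11 of 22 alternatives and was lost without WT free replicate 1 or 2 (adjusted p 0.0513 and 0.108), CBFB_KO free replicate 1 (0.0913) or either CBFB_KO poly replicate (0.0592). The SRSF3 call was kept in 13 of 22 and was lost without WT free replicate 1 (0.0652), CBFB_KO free replicate 2 (0.0684), WT poly replicate 1 or 2 (0.055 and 0.0555) or either CBFB_KO poly replicate (0.077).

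SRSF2 was the member whose free libraries were least alike. It had 186 and 166 CPM in WT and 129 and 38.6 CPM in CBFB_KO. Both knockout values were lower than both WT values but lay more than 3 times apart, and the log2 change of -1.07 ± 0.50 did not pass the test (edgeR adjusted p 0.103). It was -2.19 without CBFB_KO free replicate 1 (adjusted p 0.00133) and -0.44 without CBFB_KO free replicate 2 (0.383), so the value rests on which of these libraries is kept. It also passed with DESeq2 (0.0288), upper quartile factors (0.0409) and library size alone (0.016). SRSF2 shares exonic sequence on the opposite strand with MFSD11, which had 20.8 to 684 counts in a library, and the strand setting of the counting is not given in the sources used here, so its reads may be divided unevenly.

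The other 5 members did not pass either. SRSF6 had 43.4 and 47.5 CPM in WT free and 34.2 and 23.1 in CBFB_KO free (log2 change -0.66 ± 0.40). SRSF7 had 49.3 and 42.0 CPM in WT and 44.4 and 32.4 in CBFB_KO (-0.25 ± 0.37). These 2 were lower on average, SRSF7 with overlapping libraries. SRSF5 had 14.3 and 15.1 CPM in WT and 21.0 and 28.3 in CBFB_KO (0.75 ± 0.39). SRSF10 had 11.2 and 9.90 CPM in WT and 15.8 and 16.9 in CBFB_KO (0.63 ± 0.36). TRA2B had 23.4 CPM in both WT libraries and 27.6 and 32.3 in CBFB_KO (0.35 ± 0.35). The last 3 were higher without overlap, but the edgeR adjusted p-values of all 5 were between 0.143 and 0.615. An offset for transcript length moved SRSF6 to -2.44 (adjusted p 0.00275) and SRSF5 to 1.58 (0.0155), so these 2 depend on how length is handled. Scaled by library size alone, SRSF5 turned to -1.01, SRSF10 to -1.07 and TRA2B to -1.37, of which TRA2B passed (adjusted p 0.0389). SRSF6 (-2.26, adjusted p 0.0108) and SRSF7 (-1.85, adjusted p 0.0183) also passed as lower under that scaling. Relative to the shifted median of all genes, which again nearly repeats TMM, SRSF5 stood at 0.55, SRSF10 at 0.50, TRA2B at 0.19, SRSF6 at -0.70 and SRSF7 at -0.29.

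In count, 3 of 10 members were called higher in CBFB_KO free, where 24.2% of all genes tested were, and 1 of 10 was called lower, where 18.1% of all genes were. The median log2 change was 0.49 over the 10 and 0.04 over all genes. Both CBFB_KO free libraries were above both WT free libraries for 6 members (37.4% of all genes) and below for 3 (31.5% of all genes). Scaling sets that background: 3943 genes were called higher and 2939 lower with TMM, and 1281 higher and 6461 lower with library size alone.

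**Figure D2:**
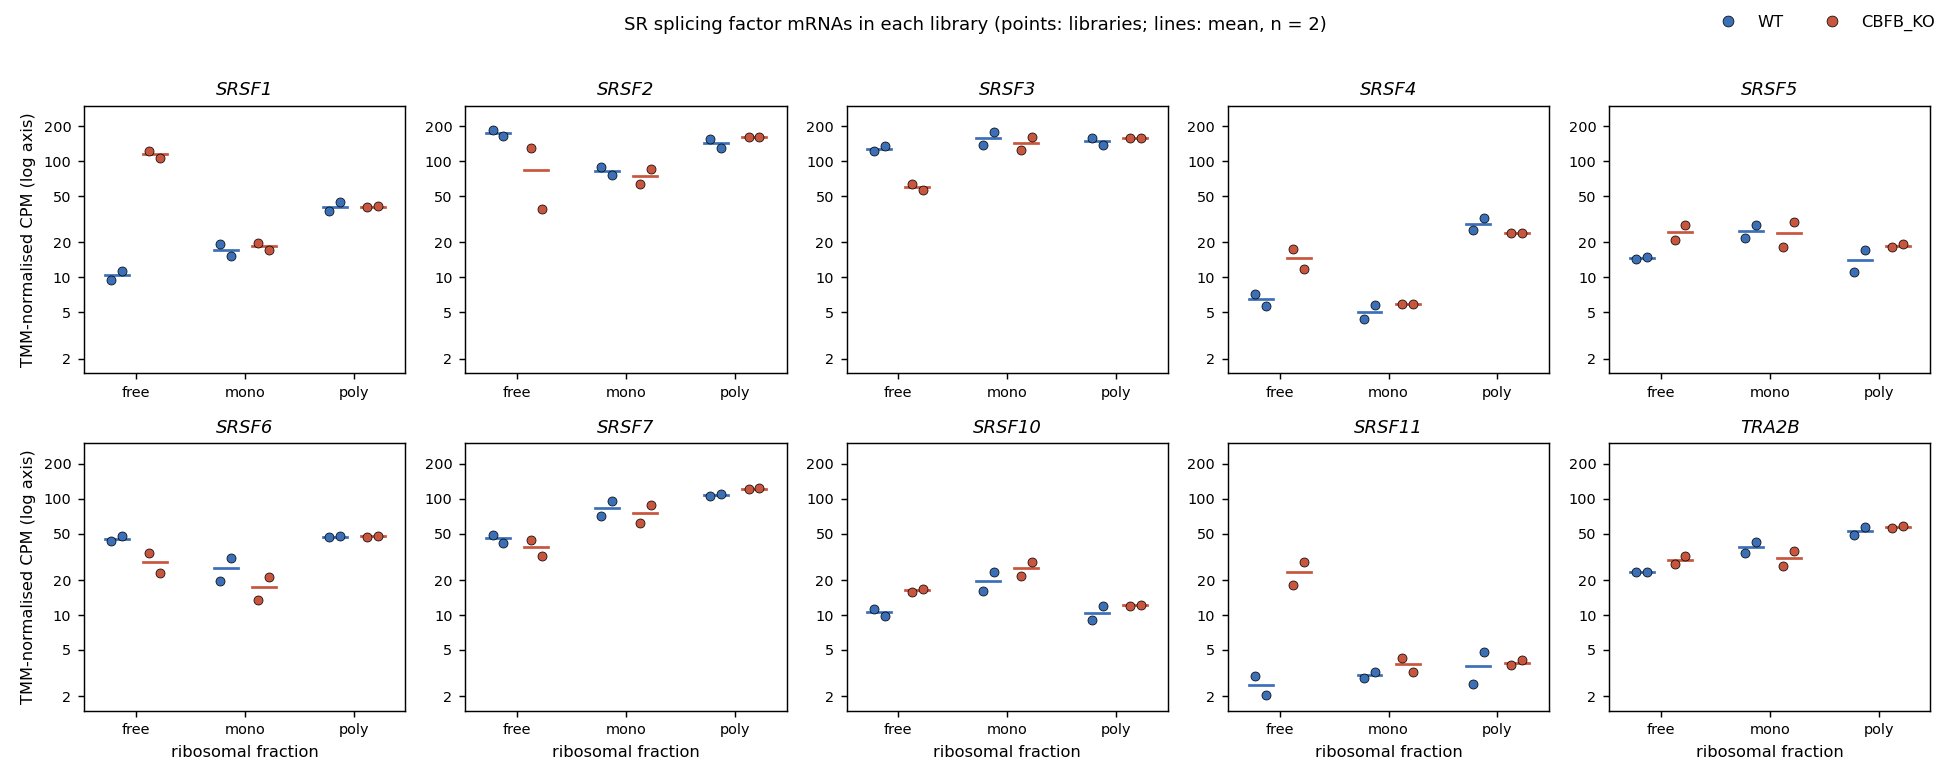
Each panel shows one gene, with TMM-normalised CPM on a log axis against the ribosomal fraction, a point for each library and a line for the mean of 2 (blue WT, red CBFB_KO). The CBFB_KO free points of SRSF1 (123 and 106 CPM) and SRSF11 (18.3 and 28.6 CPM) stand above all other points of their panels.

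No member passed the test between genotypes in the mono or the poly fraction. In the mono fraction 0 of 10 members passed the edgeR test in either direction (0.117% of all genes were called lower and 0.0307% higher), none had an unadjusted p under 0.05, and DESeq2 called 0. The log2 changes ran from -0.54 ± 0.40 for SRSF6 to 0.35 ± 0.35 for SRSF10, and both CBFB_KO libraries exceeded both WT libraries for SRSF4 and SRSF11, 2 of 10 members (17.0% of all genes), and lay below for 0 (12.9%). For SRSF11 the nearest libraries of the genotypes were equal as rounded, at 3.25 CPM. In the poly fraction 0 of 10 passed either (0.166% of all genes lower, 0.0246% higher), again with none at an unadjusted p under 0.05 and 0 by DESeq2. There the log2 changes ran from -0.25 ± 0.36 for SRSF4 to 0.41 ± 0.39 for SRSF5, and SRSF1 stood at 37.0 and 44.4 CPM in WT against 40.0 and 41.3 in CBFB_KO. Both CBFB_KO poly libraries were above both WT poly libraries for 5 members (24.7% of all genes) and below for SRSF4 alone (25.0% of all genes). The standard errors in these fractions were 0.35 to 0.49, so small changes could not be resolved.

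SRSF1 stood at 19.4 and 15.3 CPM in WT mono, 19.7 and 17.2 in CBFB_KO mono, 37.0 and 44.4 in WT poly and 40.0 and 41.3 in CBFB_KO poly. In the mono fraction SRSF2 had 88.3 and 75.6 CPM in WT and 63.9 and 85.0 in CBFB_KO, and in the poly fraction 156 and 131 in WT and 160.0 and 162 in CBFB_KO. These 2 overlapped between genotypes in mono, and in poly SRSF2 was slightly higher in CBFB_KO. The WT and CBFB_KO libraries of SRSF3 held 137 and 179 against 124 and 163 CPM in mono and 157 and 139 against 159 and 159 CPM in poly. SRSF7 stood at 71.4 and 96.0 CPM in WT mono, 61.9 and 88.8 in CBFB_KO mono, 106 and 109 in WT poly and 120.4 and 123 in CBFB_KO poly. The CBFB_KO poly values of SRSF3 and SRSF7 lay above those of WT, but by less than the SE. Their log2 changes were 0.10 ± 0.35 and 0.18 ± 0.37, and neither passed. In the mono fraction SRSF4 had 4.36 and 5.73 CPM in WT and 5.92 and 5.90 in CBFB_KO, and in the poly fraction 25.4 and 32.4 in WT and 24.3 and 24.2 in CBFB_KO. The WT and CBFB_KO libraries of SRSF5 held 21.7 and 28.5 against 18.1 and 30.1 CPM in mono and 11.2 and 17.1 against 18.2 and 19.4 CPM in poly. SRSF6 stood at 19.5 and 30.9 CPM in WT mono, 13.5 and 21.3 in CBFB_KO mono, 46.7 and 47.5 in WT poly and 47.2 and 48.1 in CBFB_KO poly. In this group, SRSF4 was higher in CBFB_KO mono and lower in CBFB_KO poly, and SRSF6 overlapped in both fractions. In the mono fraction SRSF10 had 16.0 and 23.5 CPM in WT and 21.8 and 28.5 in CBFB_KO, and in the poly fraction 9.05 and 11.9 in WT and a mean of 12.1 ± 0.112 (SD, n = 2) in CBFB_KO. The WT and CBFB_KO libraries of SRSF11 held 2.88 and 3.25 against 4.29 and 3.25 CPM in mono and 2.53 and 4.80 against 3.68 and 4.06 CPM in poly. TRA2B stood at 34.3 and 42.2 CPM in WT mono, 26.6 and 35.3 in CBFB_KO mono, 48.6 and 57.4 in WT poly and 55.6 and 58.5 in CBFB_KO poly. SRSF10 was slightly higher in CBFB_KO poly, SRSF11 in mono was separated between genotypes by less than the rounding of these values, and TRA2B overlapped in both fractions.

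**Figure D3:**
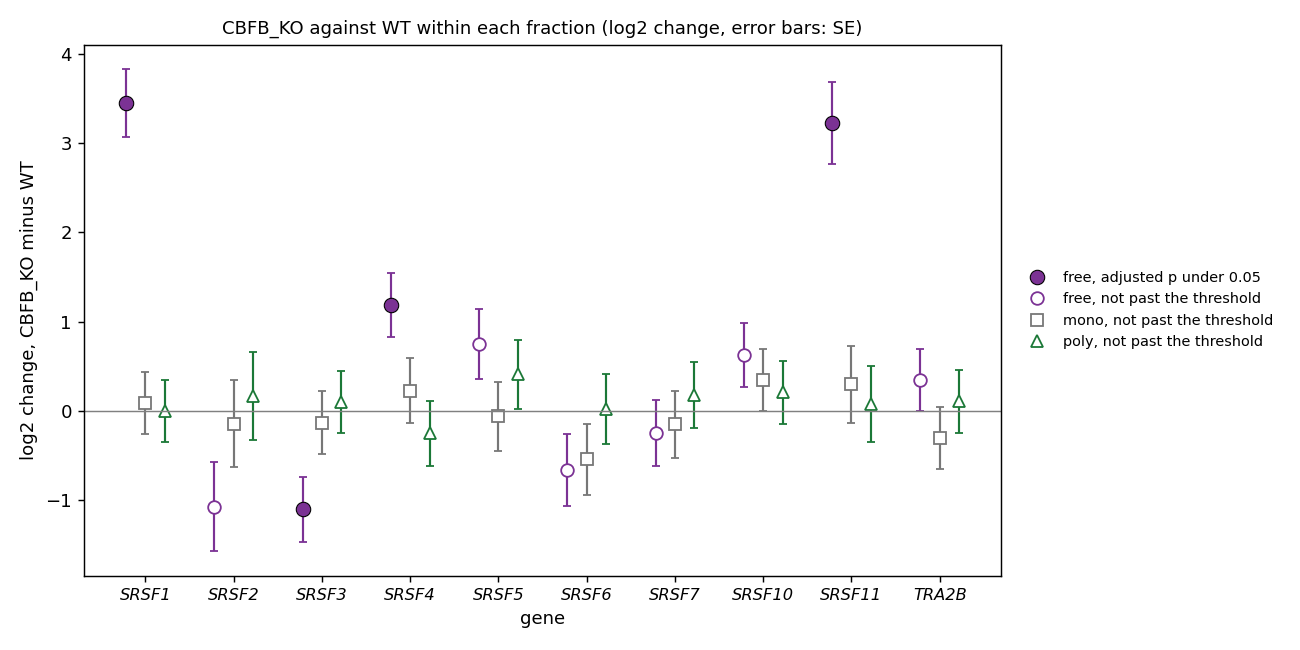
The log2 change between CBFB_KO and WT is plotted for each gene in the free (circles), mono (squares) and poly (triangles) fractions, with SE as error bars and filled symbols for an edgeR adjusted p under 0.05. SRSF1 (3.45) and SRSF11 (3.22) lie far above the rest in the free fraction, and no mono or poly symbol is filled.

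The second question was how each mRNA was divided between the polyribosomal and the free fraction, and whether that division differed between genotypes. In WT cells, SRSF4, SRSF1, SRSF7 and TRA2B were richer in poly than in free, by between 2.26 and 4.47 times. SRSF2, SRSF3, SRSF5, SRSF6, SRSF10 and SRSF11 did not pass the test, with log2 changes of -0.29 to 0.55. SRSF4 rose from 7.19 and 5.72 CPM in WT free to 25.4 and 32.4 CPM in WT poly, with no overlap (log2 change 2.16 ± 0.37, edgeR adjusted p 0.00337). SRSF1 rose from 9.52 and 11.4 to 37.0 and 44.4 CPM, also without overlap (1.96 ± 0.36, adjusted p 0.00435). Both calls held in all 22 alternatives.

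SRSF7 was at 49.3 and 42.0 CPM in WT free and 106 and 109 CPM in WT poly (1.24 ± 0.38, edgeR adjusted p 0.038). TRA2B was at 23.4 CPM in both WT free libraries and at 48.6 and 57.4 CPM in WT poly (1.18 ± 0.35, adjusted p 0.0347). Neither gene's groups overlapped, yet each call was kept in only 12 of 22 alternatives. Leaving out any WT free, WT poly or CBFB_KO poly library ended both, with adjusted p between 0.0561 and 0.19. These 4 of 10 members called higher compare with 14.0% of all genes, and 0 members were called lower (7.99% of all genes; 4 members had an unadjusted p under 0.05, all of them higher, and DESeq2 called 0 lower). The median was 0.38 over the members and 0.08 over all genes. Of all genes 2273 were called higher and 1301 lower with TMM, and 2495 higher and 347 lower with library size alone. Against the mono fraction, WT poly was higher for SRSF4 (2.52 ± 0.38, adjusted p 0.00346) and SRSF1 (1.23 ± 0.35, adjusted p 0.0294), which is 2 of 10 members where 11.0% of all genes were called. No member was lower (9.68% of all genes; 4 members at an unadjusted p under 0.05, and 0 lower by DESeq2). The SRSF1 call was lost without any WT mono, WT poly or CBFB_KO poly library (adjusted p 0.0834 to 0.196).

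In CBFB_KO cells SRSF1 and SRSF11 were lower in poly than in free. SRSF1 fell from 123 and 106 CPM in free to 40.0 and 41.3 CPM in poly (log2 change -1.49 ± 0.35, edgeR adjusted p 0.00907), and SRSF11 from 18.3 and 28.6 to 3.68 and 4.06 CPM (-2.60 ± 0.45, adjusted p 0.00181). The free libraries were the higher for both, without overlap. SRSF7 was higher in poly, at 120.4 and 123 CPM against 44.4 and 32.4 in free (1.66 ± 0.38, adjusted p 0.00793), as was SRSF3, at 159 CPM in both poly libraries against 63.0 and 56.0 in free (1.42 ± 0.36, adjusted p 0.0125). Among all genes 16.7% were called lower and 14.6% higher in this comparison. Scaled by library size alone, SRSF1 turned to 0.70 (adjusted p 0.305) and SRSF11 was at -0.26 (0.689). These calls lean on the nearly identical CBFB_KO poly pair. With that pair counted as 1 sample only the SRSF11 call remained of the 4, the adjusted p for SRSF1, SRSF3 and SRSF7 being 0.126, 0.0855 and 0.0579, and the same 3 were lost without either CBFB_KO poly library.

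The difference between genotypes in the poly to free change was tested directly. It was -3.45 ± 0.50 on the log2 scale for SRSF1 (10.9-fold lower in CBFB_KO, edgeR adjusted p 0.00134) and -3.14 ± 0.62 for SRSF11 (8.84-fold lower, adjusted p 0.00633). The poly libraries of the genotypes overlapped for both genes, and the free libraries did not. SRSF1 kept the call in 21 of 22 alternatives and SRSF11 in 19, which lost it without CBFB_KO poly replicate 1 (adjusted p 0.0563) and with that pair as 1 sample (0.0557). With scaling by library size alone the changes were -1.80 and -1.38 and did not pass (adjusted p 0.101 and 0.158). That scaling moved the median of all genes to 1.54, and relative to this median the 2 genes stood at -3.33 and -2.91. Setting values against the median nearly repeats what TMM does, so this is not a separate check.

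The other 8 members did not pass. SRSF4 came nearest at -1.45 ± 0.51 (adjusted p 0.0656), and passed without CBFB_KO free replicate 2 (0.0429) and in DESeq2 (0.0206). SRSF2 and SRSF3 had positive values, 1.24 ± 0.70 and 1.21 ± 0.50 (adjusted p 0.212 and 0.104), and SRSF2 was at 2.36 without CBFB_KO free replicate 1 (0.00371) and at 0.61, not passing, without CBFB_KO free replicate 2. SRSF5, SRSF6, SRSF7, SRSF10 and TRA2B lay between -0.42 and 0.68, of which SRSF6, at 0.68, moved to 2.49 and passed with a length offset (adjusted p 0.0226, and 0.0202 with the replicate block added). The count of 2 of 10 lower compares with 14.3% of all genes, and 0 higher with 4.1%. The median edgeR log2 change was -0.29 over the members and -0.10 over all genes. An unadjusted p under 0.05 was found for 4 members, and the share of all genes at that p is not given here. DESeq2 called 3 members lower and 0 higher, and of 15643 genes it called 3264 lower and 2113 higher. Of all genes 2332 were called lower and 668 higher with TMM, and 646 lower and 3003 higher with library size alone.

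**Figure D4:**
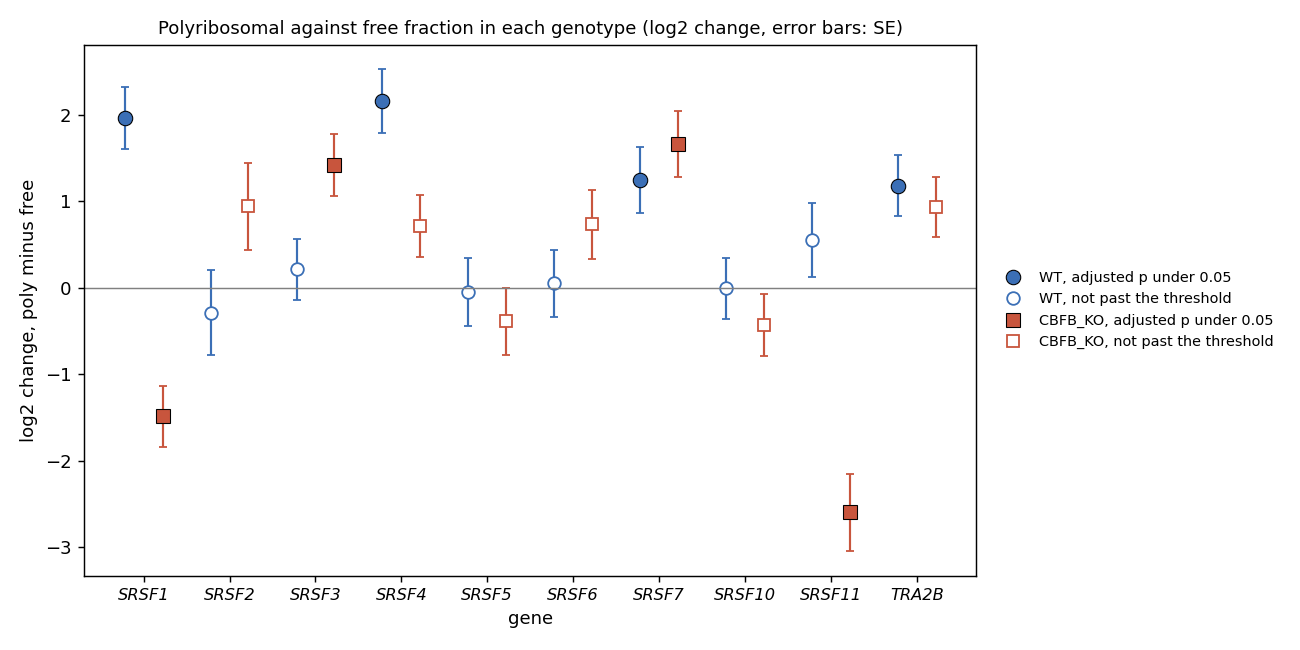
The log2 change from the free to the poly fraction is plotted for each gene in WT (circles) and CBFB_KO (squares), with SE as error bars and filled symbols for an edgeR adjusted p under 0.05. SRSF1 goes from 1.96 in WT to -1.49 in CBFB_KO and SRSF11 from 0.55 to -2.60; scaled by library size alone, the CBFB_KO value of SRSF1 turns to 0.70.

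The mono to free change gave the same 2 genes. Its difference between genotypes was -3.36 ± 0.50 for SRSF1 (edgeR adjusted p 0.00157) and -2.92 ± 0.62 for SRSF11 (adjusted p 0.00985, and 0.0525 without CBFB_KO mono replicate 2), again 2 of 10 lower where 14.2% of all genes were, and 0 higher where 4.87% were (2 members at an unadjusted p under 0.05, DESeq2 2 lower and 0 higher). This comparison shares the free libraries with the one before. In CBFB_KO alone, mono was lower than free for SRSF1, SRSF11 and SRSF4 (-2.63, -2.63 and -1.32; -1.36, -1.20 and -0.12 when scaled by library size alone, none of which passed) and higher for SRSF3 (1.27), against 23.0% of all genes lower and 20.3% higher. SRSF3 lost this call without CBFB_KO mono replicate 2 (adjusted p 0.092), and SRSF4 without CBFB_KO free replicate 1 or either CBFB_KO mono replicate (0.0575 to 0.0777). In WT alone 0 of 10 passed in either direction (1.43% of all genes lower, 5.55% higher), although 3 members had an unadjusted p under 0.05 and DESeq2 called 1, lower. The poly to mono change differed between genotypes for 0 of 10 members and for 0.0% of all genes, with no member at an unadjusted p under 0.05 and 0 by DESeq2. Within CBFB_KO, poly exceeded mono for SRSF4 (2.03 ± 0.37, adjusted p 0.0076), SRSF6 (1.46 ± 0.40, adjusted p 0.0311) and SRSF1 (1.14 ± 0.35, adjusted p 0.0461), where 8.2% of all genes were called higher. No member was called lower by edgeR (8.66% of all genes), while DESeq2 called SRSF10 lower, and 6 members had an unadjusted p under 0.05. With a length offset SRSF6 was at 0.60 (adjusted p 0.397) and was not called, while SRSF2 (1.28, 0.0384) and SRSF7 (1.24, 0.0232) were. With the CBFB_KO poly pair as 1 sample none of the 3 was called (adjusted p 0.087 to 0.248), and the same held without any CBFB_KO mono or poly library. The SRSF1 and SRSF6 calls were also lost without either WT poly library (adjusted p 0.0562 to 0.0792), and SRSF1 without either WT mono library (0.0627 and 0.0635).

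Transcript length gave a second readout. RSEM reports for each gene a mean length over its isoforms, weighted by their estimated abundance, which moves when the isoform mixture moves. A longer mean is not by itself a sign of poison exons or retained introns. The annotated SRSF3 transcripts are 4222 bases (coding), 1095 (decay) and 1518 (retained intron). The SRSF3 means below, poly included, lie nearer to the decay and retained intron transcripts than to the coding one. If the deposited annotation has these lengths, RSEM placed most of SRSF3 on the shorter transcripts. For SRSF1, coding transcripts have 568 to 3117 bases, decay transcripts 758 to 1720 and the retained intron transcript 689. Which isoforms moved was not tested. The mean length was tested with limma on the log2 scale for the 9370 genes with at least 10 counts in every library, the 10 members among them. In the free fraction SRSF1 had a mean length of 1478 and 1764 bases in WT and 2088 and 2117 bases in CBFB_KO. The knockout values lay in the range of polyribosomal RNA, which had 2201 and 2087 bases in WT and 2171 and 2232 bases in CBFB_KO. The log2 change between genotypes was 0.38 ± 0.07 (limma adjusted p 0.0214, and 0.0827 without CBFB_KO free replicate 2). SRSF3 was longer too, with 1709 and 1619 bases in WT free and 1809.7 and 1926 in CBFB_KO free, 1991 and 1964 in WT poly, and 1982 bases in both CBFB_KO poly libraries. Its log2 change was 0.17 ± 0.03 (limma adjusted p 0.0234), lost without WT free replicate 2, CBFB_KO free replicate 2 or either CBFB_KO poly replicate (adjusted p 0.0515 to 0.0661).

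SRSF2 had 1173 and 1335 bases in WT free and 1418 and 1666 in CBFB_KO free, without overlap but with a spread that kept it from passing (0.30 ± 0.09, limma adjusted p 0.0715). In WT, poly was longer than free for SRSF2 (0.42 ± 0.09, adjusted p 0.0396), SRSF1 (0.41 ± 0.07, adjusted p 0.029) and SRSF3 (0.25 ± 0.03, adjusted p 0.0119). Each of these 3 calls was lost without either WT poly replicate (adjusted p 0.0758 to 0.209). SRSF1 and SRSF2 were also lost without any CBFB_KO mono or poly library, and SRSF2 also without WT free replicate 1 or any WT mono library (adjusted p 0.0525 to 0.108). The remaining members showed no change that passed. SRSF7 was shorter in WT poly, at 1189 and 1188 bases, than in WT free, at 1418 and 1309 (-0.20 ± 0.05, adjusted p 0.0614). SRSF4 was at 2387 bases in both WT free libraries and at 1679.9 and 1994 in WT mono. SRSF6, for which the tables list only 2 transcripts, stayed between 3712 and 3831 bases in all 12 libraries. The counts were 2 of 10 longer in CBFB_KO free than in WT free (8.62% of all genes) and 0 shorter (2.53%), and 3 of 10 longer in WT poly than in WT free (3.85%) and 0 shorter (1.1%). The difference between genotypes in the poly to free length passed for 0 of 10 (2.63% of all genes shorter, 0.48% longer), with 2 members at an unadjusted p under 0.05.

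**Figure D5:**
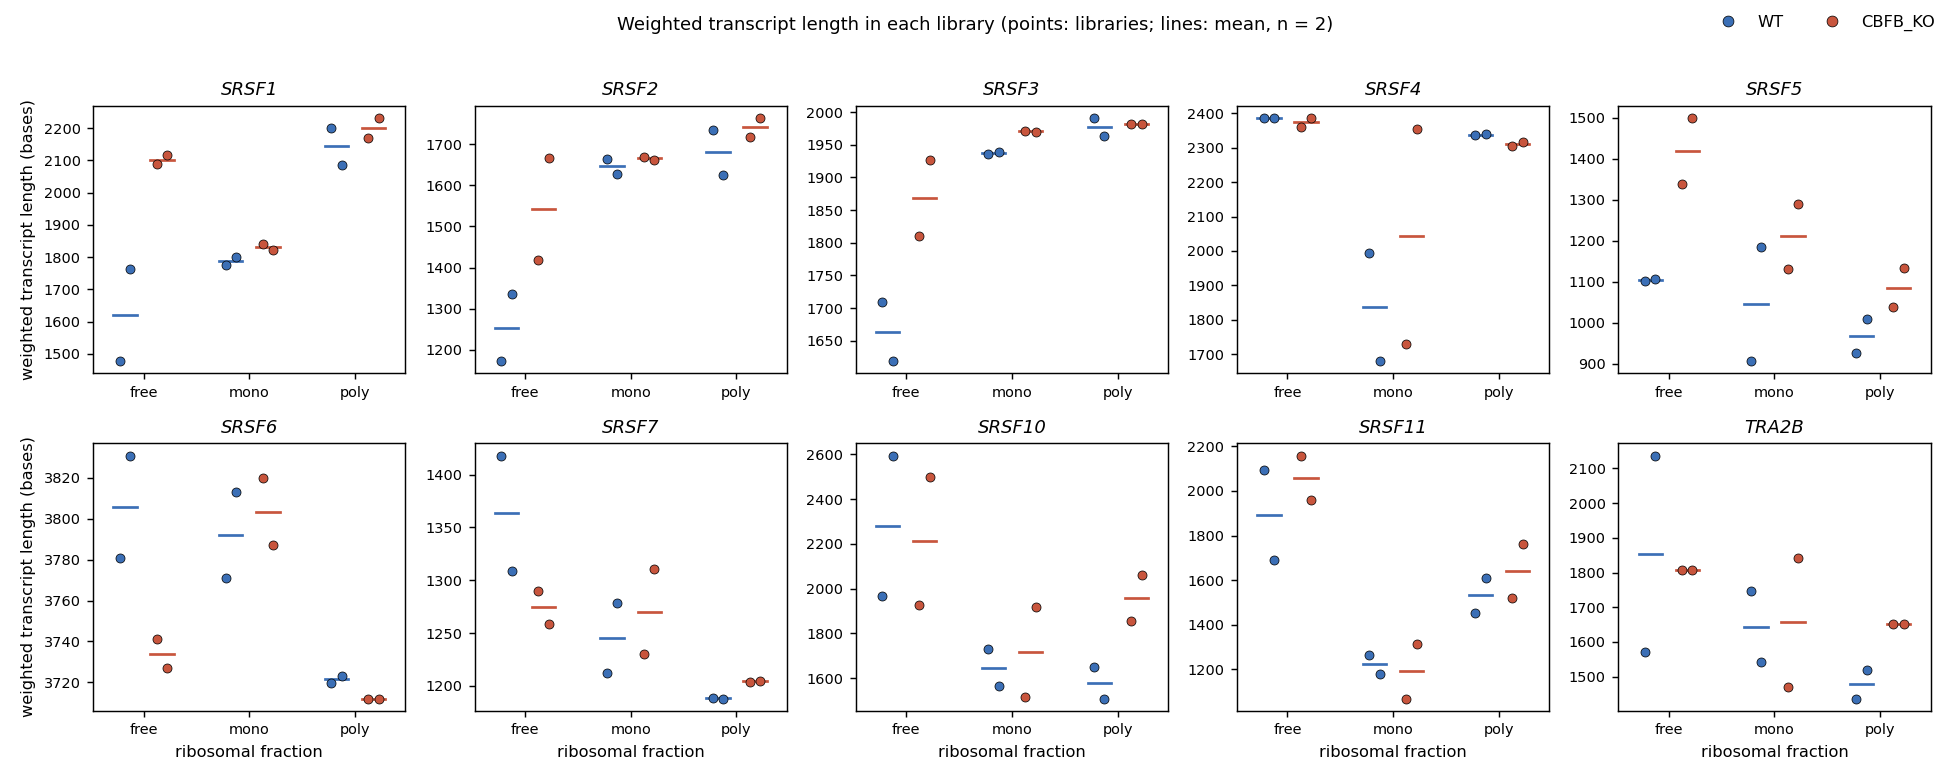
Each panel shows one gene, with RSEM's weighted transcript length in bases against the ribosomal fraction, a point for each library and a line for the mean of 2 (blue WT, red CBFB_KO); the axes do not start at 0 and differ between panels. SRSF1 is at 1478 and 1764 bases in WT free and at 2088 bases or more in CBFB_KO free and in both poly groups except for a single WT poly library at 2087.

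Genes that act with the SR proteins were taken from lists. These lists were chosen with earlier results of these data known, so an excess in one is not independent support. The changes are given with TMM, which called 3943 of all genes higher in CBFB_KO free. The length offset called 2893 higher and library size alone 1281. Of the SR-related proteins, which carry arginine and serine rich domains outside the SR family itself, 12 of 16 were called higher in CBFB_KO free and 0 lower (24.2% and 18.1% of all genes), with a median log2 change of 2.92 (0.04 over all genes). The largest were PNN (4.67 ± 0.66), SON (4.41 ± 0.65), a scaffold of nuclear speckles, LUC7L2 (4.16 ± 0.52) and PNISR (4.12 ± 0.55), with edgeR adjusted p-values of 0.00026 to 0.000694. In the difference of the poly to free change, 11 of 16 were called lower and 0 higher (14.3% and 4.1% of all genes), with a median of -2.95 (-0.10 over all genes). SRSF1 and SRSF11, at 3.45 and 3.22 in the free fraction, were above the median of this list, and the other 8 members were below it.

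Of the 8 SR protein kinases and their importer, 4 were higher in CBFB_KO free and 1 lower, where 24.2% of all genes were called higher and 18.1% lower. TNPO3, the importin that carries SR proteins into the nucleus, rose by 3.47 ± 0.64, and the kinases SRPK2 and SRPK1 rose by 4.12 ± 1.06 and 2.53 ± 0.41, while CLK3 fell by 2.55 ± 0.71 on the log2 scale. Among 23 core splicing factors 4 were higher and 3 lower, with a median of 0.22, and neither count is a larger share than the 24.2% and 18.1% of all genes. Those called higher included SF3A1 (3.53 ± 0.57) and SF3A2 (3.34 ± 0.42), subunits of the U2 particle. Of 14 tested factors of nonsense-mediated decay, the pathway that removes poison exon transcripts, 5 were higher and 1 lower (24.2% and 18.1% of all genes), with a median of 0.79. SMG1, the kinase that acts on UPF1, rose by 4.57 ± 0.75, and SMG6, an endonuclease, by 4.27 ± 0.46 on the log2 scale. Of the 3 further SR genes tested, SRSF9 was called, lower in CBFB_KO free by 1.54 ± 0.45 on the log2 scale (edgeR adjusted p 0.0204). None of the genes on these lists was called between genotypes in the mono or poly fraction by edgeR or DESeq2, and 1 core splicing factor had an unadjusted p under 0.05, in poly.

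RNAs listed as nuclear changed in the same direction as SRSF1 and SRSF11 in the free fraction. Of 5 such RNAs listed, 3 were tested, and MALAT1 (3.42 ± 0.77), TUG1 (3.11 ± 0.79) and NEAT1 (2.80 ± 0.65) were all called higher in CBFB_KO free (edgeR adjusted p 0.00672 to 0.0112). Of all genes tested, 24.2% were called higher there, so this direction is not particular to nuclear RNAs. The summed level of the 5 was 13.0 to 13.3 CPM in WT free and 70.8 to 154 CPM in CBFB_KO free. In mono the sum was 13.6 to 56.3 CPM in WT and 13.3 to 23.8 CPM in CBFB_KO. In poly it was 5.08 to 9.23 CPM in WT and 5.96 to 6.65 CPM in CBFB_KO. NEAT1 was also called higher in WT mono than in WT free by edgeR. MEG3 was at 0 in every library. The part of nuclear RNA in the SRSF1 and SRSF11 results was not tested, nor was that of the mitochondrial share, which is highest in the same 2 libraries. Leaving mitochondrial genes out of the scaling ended or added no call for SRSF1 or SRSF11. That setting hardly alters the scaling, since the median of all genes between genotypes in free was 0.04 with them and 0.08 without. It is therefore not a test of the mitochondrial share.

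The 10 mRNAs differed in their profiles over the conditions. Measured as the root mean square distance over the 6 condition means of log2 CPM, each centred on its gene's mean, TRA2B lay nearest to the average of the 10 (0.28) and SRSF11 and SRSF1 farthest (0.92 and 0.89). The genes outside the list nearest to that average were ADIPOR2 and TMEM19 (both 0.06), SLC25A12 (0.07), PDZRN3 (0.08) and PPM1D (0.09). They lay nearer to it than any member did, but were picked as the nearest of all tested genes with a symbol. That they lay nearer does not measure how alike the members are.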

How the data were processed

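RNA of 12 gradient fractions was sequenced, 2 libraries in each of 6 groups, grouped by the GEO labels. Per the labels, the authors trimmed reads with Trimmomatic, aligned them to hg19 with STAR and quantified genes with RSEM (tools and build as named in the submitters' processing notes, without versions). The annotation release and strand setting are not given in the sources used here. The deposited values are expected counts per gene, TPM, and the weighted transcript length in bases; deposited FPKM values were not used. Reads of isoforms, paralogs and overlapping genes are divided by RSEM's estimate.

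Expected counts were rounded to whole numbers. All 16275 genes that passed filterByExpr were fitted over the 12 libraries with edgeR 4.0.16 (TMM factors, quasi-likelihood test, 6 group means), with Benjamini-Hochberg adjustment over all genes and a threshold of 0.05. Further tests used limma 3.58.1 on log2 length for the 9370 genes with at least 10 counts in every library. DESeq2 1.42.0 was an alternative, as were other scalings and filters, a transcript length offset, a replicate block, the CBFB_KO poly pair as 1 sample and leaving out each library in turn. The fitting was tested on simulated data. The standard error of a change was taken from its F statistic. Percentages of all genes called are those of the main edgeR or limma test. They are not a background for counts by DESeq2 or by unadjusted p.

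Symbols came from a table of gene names for 49995 genes and from GENCODE 29 for 281. Coordinates and sequences are of GRCh38 and were not mixed with hg19. The members and lists were chosen with earlier results of these data known. All members are named, and at most 4 called genes of each list with the largest changes. Likeness names the 5 nearest genes. A count of 3 in a library corresponds to 0.0287 to 0.303 CPM, which covers counting error only. The values of 1 listed gene and 1 exon's sequence are not reported here.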

Additional observations from a re-analysis of the deposited data

Results flagged for a closer look

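The change from the free to the ribosome-bound fractions differed between CBFB_KO and WT for SRSF1 and SRSF11 by a test of the difference itself (edgeR, adjusted over all genes). For SRSF1 the difference was -3.45 on the log2 scale for poly against free and -3.36 for mono against free. For SRSF11 it was -3.14 and -2.92. Both comparisons use the same free libraries. In these the nuclear RNAs summed to 70.8 to 154 CPM in CBFB_KO and 13.0 to 13.3 CPM in WT, and mitochondrial transcripts took 71.6% and 87.2% of the counts in CBFB_KO. The part of either in the difference was not tested.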

How the results depend on the processing

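The SRSF1 and SRSF11 changes between genotypes in the free fraction passed the test in all 22 alternatives, and all others below refer to counts of the 10 members called or to log2 changes. In the mono and poly fractions no alternative called a member between genotypes. In the free fraction the count of members lower in CBFB_KO, 1, became 2 with DESeq2, upper quartile factors and either length offset, 5 with library size only, and 0 with no filter on low counts, the CBFB_KO poly pair as 1 sample or only the 4 libraries of the fraction. Members higher in poly than free in WT, 4, became 2, and members higher in poly than mono in WT, 2, became 1, with upper quartile factors (which added 1 lower in the latter), with no filter, with a replicate block within genotype and with the pair as 1 sample. In CBFB_KO, members higher in poly than mono, 3, became 1 with upper quartile factors or the block within genotype and 0 with the pair as 1 sample. With the pair as 1 sample, poly against free in CBFB_KO had 1 lower and 0 higher, and the difference between genotypes had 1 lower. DESeq2 called 1 lower in mono against free in WT, 2 higher in mono against free and 1 lower in poly against mono in CBFB_KO. With library size only, CBFB_KO had 0 lower and 4 higher in mono against free and 0 lower and 8 higher in poly against free, and both differences between genotypes had 0 lower and 1 higher. Both length offsets called 1 higher in each of these differences. The number of all genes called moved with the setting too. Between genotypes in free, 2939 of 16275 genes were lower in the main fit and 3720 with DESeq2. Upper quartile factors called 3536 lower, the length offsets 3318 and 3597, and library size only 6461. For most other comparisons the counts of all genes under the alternatives are not given here, so those counts of members have no background beside them.

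Directions turned for some members that had not passed. With library size only, the difference in poly against free became 0.13 for SRSF4, 1.42 for SRSF5, 1.27 for SRSF10 and 1.48 for TRA2B. The change between genotypes in free became -0.39 for SRSF4, which had passed, -1.01 for SRSF5, -1.07 for SRSF10 and -1.37 for TRA2B. Poly against free in WT became 0.24 for SRSF2, 0.50 for SRSF5 and 0.54 for SRSF10. The length offset without and with the replicate block gave SRSF7 0.45 and 0.44 between genotypes in free and -0.32 and -0.31 in the difference, and in poly against free in WT it gave SRSF5 0.13 and 0.11 and SRSF6 -0.87 in both. In the same comparison SRSF6 was -0.08 with DESeq2 and -0.40 with upper quartile factors, SRSF3 was -0.24 with upper quartile factors, and SRSF10 was 0.03 with no filter and 0.02 with the pair as 1 sample. Apart from the scaling by construction, the cause was not tested.

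Leaving out 1 library in turn gave these ranges of members called. Between genotypes in free, 0 to 2 were lower. In WT, 2 to 4 were higher in poly than free, 1 to 2 higher in poly than mono and 0 to 1 lower in mono than free. In CBFB_KO, poly against free had 1 to 2 lower and 0 to 3 higher, mono against free 2 to 3 lower and 0 to 2 higher, and poly against mono 0 to 1 lower and 0 to 4 higher. The difference in poly against free had 1 to 3 lower and 0 to 1 higher, and that in mono against free 1 to 2 lower and 0 to 1 higher. Length changed for 0 to 3 members between genotypes in free, 0 to 4 in poly against free in WT and 0 to 1 in the difference. The sign turned for SRSF10 (-0.21 to 0.20) and SRSF5 (-0.37 to 0.25) in poly against free in WT, and for SRSF5 in the difference (-0.61 to 0.01).

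Replicates of the same number did not deviate together in all groups (Pearson r across genes from -0.393 to 0.507) and the labels name no shared batch, so the number was not used for pairing. A replicate block left every count of members from edgeR as it was, that of members lower in the difference in poly against free at 2. For length, it ended the SRSF2 call in poly against free in WT (limma adjusted p 0.0521) and added SRSF5 between genotypes in free (0.05). Depth limits the CBFB_KO free libraries most, with 13568143 and 5247878 counts outside the mitochondrial genome.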
